A study of Homo sapiens with 6 samples.

Results

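The genes described here are 35 interferon-stimulated genes, taken by symbol from a deposited table of 26364 genes. They comprise the ISG15 conjugation system, antiviral effectors, small interferon-induced proteins, PARP9, PARP12, PARP14 and DTX3L, guanylate-binding proteins, 2 chemokines and the 3 immunoproteasome subunits. The OAS, IFIT, RNA sensor, IRF and STAT genes are left out of the set and return only as other genes of the same pathway. All 35 symbols were in the table, and all 35 passed the filter of a mean of at least 10 normalized counts over the 6 libraries. RNA came from Calu3, an established human cell line that grew out of a lung adenocarcinoma and keeps features of airway epithelium, and was sequenced single-end. The cells received siRNA against BRD8, which encodes a bromodomain subunit of the TIP60 histone acetyltransferase complex, in 3 libraries, or a negative control siRNA in 3 libraries, each labelled with 20 nmol of siRNA and RNAiMax as the transfection reagent. A single reagent targeted BRD8, so effects of that reagent apart from BRD8 loss cannot be told apart from those of BRD8 loss. Values are normalized counts, meaning reads of a gene over the size factor of its library.

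Interferons secreted by infected or sensing cells bind receptors whose JAK kinases phosphorylate STAT transcription factors. After type I or type III interferon, the factor ISGF3, which contains IRF9, binds the interferon-stimulated response element (ISRE) in promoters, while interferon gamma acts mainly through the GAS element. Airway epithelium answers mainly to type I and type III interferons, and keeps a basal level of many of these transcripts without a stimulus. The immunoproteasome is a proteasome whose catalytic subunits have been exchanged for PSMB8, PSMB9 and PSMB10, which alters the peptides cut for presentation.

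The promoters of these genes were searched for the cores of both elements, because the set is defined by its response to interferon. RefSeq promoter windows on GRCh38.p14, from 250 bases before to 50 bases after a start site, were found for 31 of the 35 genes, with none for USP18, MX2, TRIM22 and GBP2. The ISRE core (GAAA, any 2 bases, GAAA, on either strand) was present in 23 of those 31 genes (74.2%), against 4.38% of the 27305 genes with a window. The GAS core TTCNNNGAA, which reads the same on both strands, was present in 10 of the 31 genes (32.3%), against 9.38% of all genes with a window. A match describes letters only and is not a bound site.

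The windows below carry the ISRE core in capitals, written 5′ to 3′ on the strand of the gene, where TTTC, 2 bases, TTTC is the core read from the other strand. They are shown for 5 of the 8 genes whose rise held whichever library was left out (GBP1, GBP3, DDX60, IFI44, IFI27), for ISG15 and CXCL10, for the pair PARP9 and DTX3L, and for the immunoproteasome genes PSMB8 and PSMB10. Of the remaining genes whose rise held, SAMD9L and CXCL11 have a window that holds no core, and GBP2 was not searched.
GBP1: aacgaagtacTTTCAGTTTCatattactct
GBP3: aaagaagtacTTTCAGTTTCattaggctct
DDX60: gtgctgaaggGAAACTGAAAcctaagtgct
IFI44: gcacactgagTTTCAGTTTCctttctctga
IFI27: cagTTTCGGTTTCctgGAAAATGAAAcct
ISG15: gcctcggGAAAGGGAAACCGAAActgaagc
CXCL10: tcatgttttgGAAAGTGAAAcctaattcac
PARP9: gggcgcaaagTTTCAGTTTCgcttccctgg
DTX3L: ccagggaagcGAAACTGAAActttgcgccc
PSMB8: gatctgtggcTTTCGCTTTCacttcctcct
PSMB10: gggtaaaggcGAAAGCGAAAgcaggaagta

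The GBP1 window lies at chr1:89065316-89065345 on the minus strand and its core begins 127 bases before the start, while the GBP3 core begins 3 bases into the transcript, in the window chr1:89022845-89022874 of the minus strand. Both hold the same core, and this form, with CT between the GAAA blocks on one strand or AG between the TTTC blocks on the other, occurred in the windows of 10 of the 31 genes searched, namely RSAD2, BST2, ISG20, DDX60, SAMD9, IFI44, PARP9, DTX3L, GBP1 and GBP3. It occurred in 0.265% of all 35116 windows, which is a share of windows and not of genes. The windows of PARP9 and DTX3L are the same stretch, chr3:122564322-122564351, read on the minus strand for PARP9 and on the plus strand for DTX3L, so that both promoter windows hold the same core; it begins 41 bases before the PARP9 start and 6 bases before the DTX3L start, which it crosses. ISG15 (chr1:1013377-1013406, plus strand) carries 2 overlapping cores, and IFI27 (chr14:94110625-94110653, plus strand) carries 2 cores set apart by a few bases. The cores of PSMB8 (chr6:32844032-32844061) and PSMB10 (chr16:67936852-67936881), both on the minus strand, begin 4 and 21 bases before the start. The remaining windows lie at chr4:168318821-168318850 (DDX60, minus), chr1:78649761-78649790 (IFI44, plus) and chr4:76023699-76023728 (CXCL10, minus). Of the genes with an ISRE core 13 of 23 rose after BRD8 siRNA, and of those with a window and no core 4 of 8 rose, at median log2 fold changes of 0.43 and 0.38. Over all genes tested 10.1% rose (limma, adjusted p under 0.05). The difference between genes with and without a core was not tested.

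The libraries held 33640814 to 37896467 reads assigned to genes. BRD8 had 1312, 1084 and 1156 normalized counts in the BRD8 siRNA libraries, against 2751, 2928 and 3067 in the control libraries (log2 fold change -1.30, SE 0.0904, limma adjusted p = 1.13e-04). Part of the BRD8 exons is also covered by exons of KIF20A, a gene that runs the other way. Reads from that part cannot be assigned to either gene, because strand was not marked. KIF20A was lower too (log2 fold change -0.67, SE 0.0922, limma adjusted p = 0.00198). The share of such reads in either fall was not tested. Nothing in the labels ties the libraries to separate cultures, and the p-values therefore cover only the spread among these 6 libraries, which may be technical. In bulk RNA, more cells that express a gene and more RNA per cell cannot be told apart. All 9 airway epithelial markers examined passed the filter and 4 of them rose, where 10.1% of all genes tested rose. The log2 fold change was above 0 in 8 of the 9, at a median of 0.34, with KRT8 at 0.41 and EPCAM at -0.005. Their summed level was 487773 to 549836 normalized counts in the BRD8 siRNA libraries, against 368371 to 464854 in the control libraries. The part of this difference in the results below was not tested. Of 8 leukocyte markers 3 passed the filter (LYZ, CD68 and CD14, which cells other than leukocytes can also express), and CD68 rose. MS4A1 was at 0 in all libraries, and PTPRC, the common leukocyte marker, was at 0 to 5.40 normalized counts. Summed over the 8, the level was 18686 to 19209 in the BRD8 siRNA libraries, against 17969 to 19829.8 in the control libraries, nearly all of it LYZ and CD68. Of 8 fibroblast and endothelial markers only COL1A1 passed the filter and it did not pass the test, COL1A2 was at 0 in all libraries, and the summed level was 169 to 186 in the BRD8 siRNA libraries, against 189.6 to 205 in the control libraries. Control library 2 stood apart from the other control libraries by transcript length, and this touches many values below. Across the 35 genes, which are not independent replicates, its deviation from the mean of the other control libraries had a Spearman correlation with transcript length of -0.72, and one of -0.56 across 14828 tested genes with a known length. BRD8 library 2 showed the same slope within its group, at -0.63 across the 35 genes. With a limit of 2000 bases chosen after the values were seen, control library 2 was the highest control in 11 of 13 genes with a shorter transcript and the lowest in 11 of 22 genes with a longer one, in 8 of which it was the highest. The part of this length pattern in the results was not tested, and values with the trend in length and GC content removed from each library are given where they change a call.

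**Figure D1:**
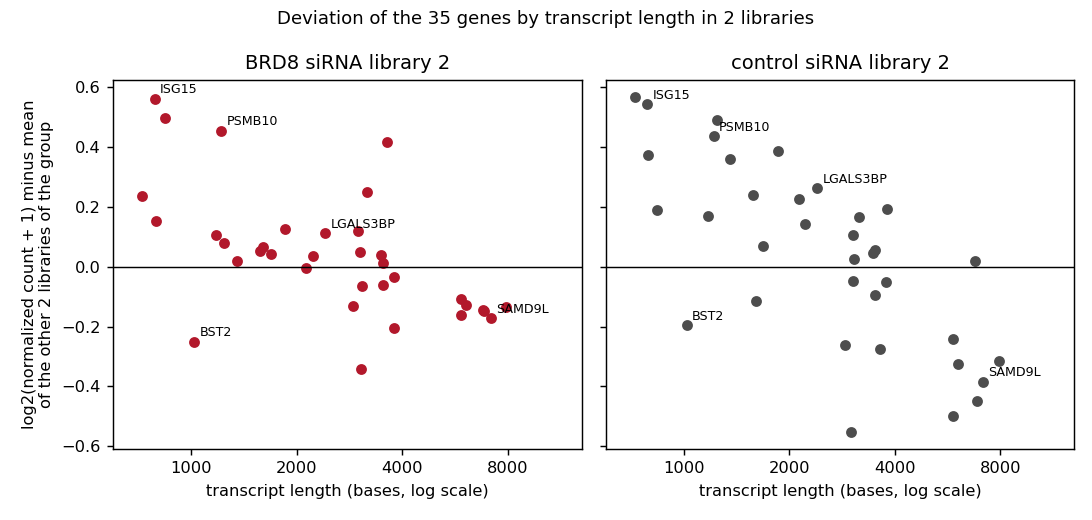
Deviation of each of the 35 genes in BRD8 siRNA library 2 (left) and control siRNA library 2 (right) from the mean of the other 2 libraries of its group, in log2(normalized count + 1), against transcript length in bases on a log axis. ISG15 and PSMB10, with short transcripts, lie above 0 and SAMD9L, with a long one, lies below 0 in both libraries, while BST2, with a short transcript, lies below 0 and HERC5, MX1 and EPSTI1, with longer ones, lie above 0 in both.

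More genes of the set rose after BRD8 siRNA than did not, and no gene of it fell. Of the 35 genes 19 rose (limma, adjusted p under 0.05), where 10.1% of all 15354 genes tested rose, and none fell, where 8.93% of all genes fell. At an unadjusted p under 0.05 the counts were 26 higher and 0 lower, against 16.8% and 16.3% of all genes. Their median log2 fold change was 0.43, against -0.01 over all genes tested, and the values ran from -0.07 for USP18 to 1.08 for IFI27. In 24 of the 35 genes every BRD8 siRNA library lay above every control library, as it did in 18.9% of all genes, and in no gene of the set did all of them lie below, as they did in 17.9% of all genes. Most of the rises were under 2-fold, and only IFI27 and TRIM22 passed that size on the scale of mean normalized counts, at 2.09-fold and 2.19-fold.

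The rises differed in how far they rested on single libraries. Whichever library was left out, 8 genes kept their call, which were DDX60, SAMD9L, IFI27, IFI44, GBP1, GBP2, GBP3 and CXCL11, at adjusted p-values no higher than 0.0429. With BRD8 library 1, 2 or 3 left out 15, 9 and 9 genes of the set rose, where 7.43%, 5.83% and 5.68% of all genes rose. With control library 1, 2 or 3 left out 13, 25 and 8 rose, where 6.94%, 15.9% and 5.42% of all genes rose, so the count was higher than with all libraries only where control library 2 was left out. On whole reads recovered from the values 20 genes of the set rose in edgeR and 21 in DESeq2, where 10.7% and 11.2% of all genes rose. In the authors' deposited table the count was 18, and with no filter on low values it was 15, where 10.4% and 6.46% of all genes rose. Once the length and GC trend was removed 24 of the 35 genes rose, ISG15, HERC6, MX2, RSAD2 and PARP12 being added, and 1, UBE2L6, fell, where 16.1% of all genes rose and 19.3% fell.

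**Figure D2:**
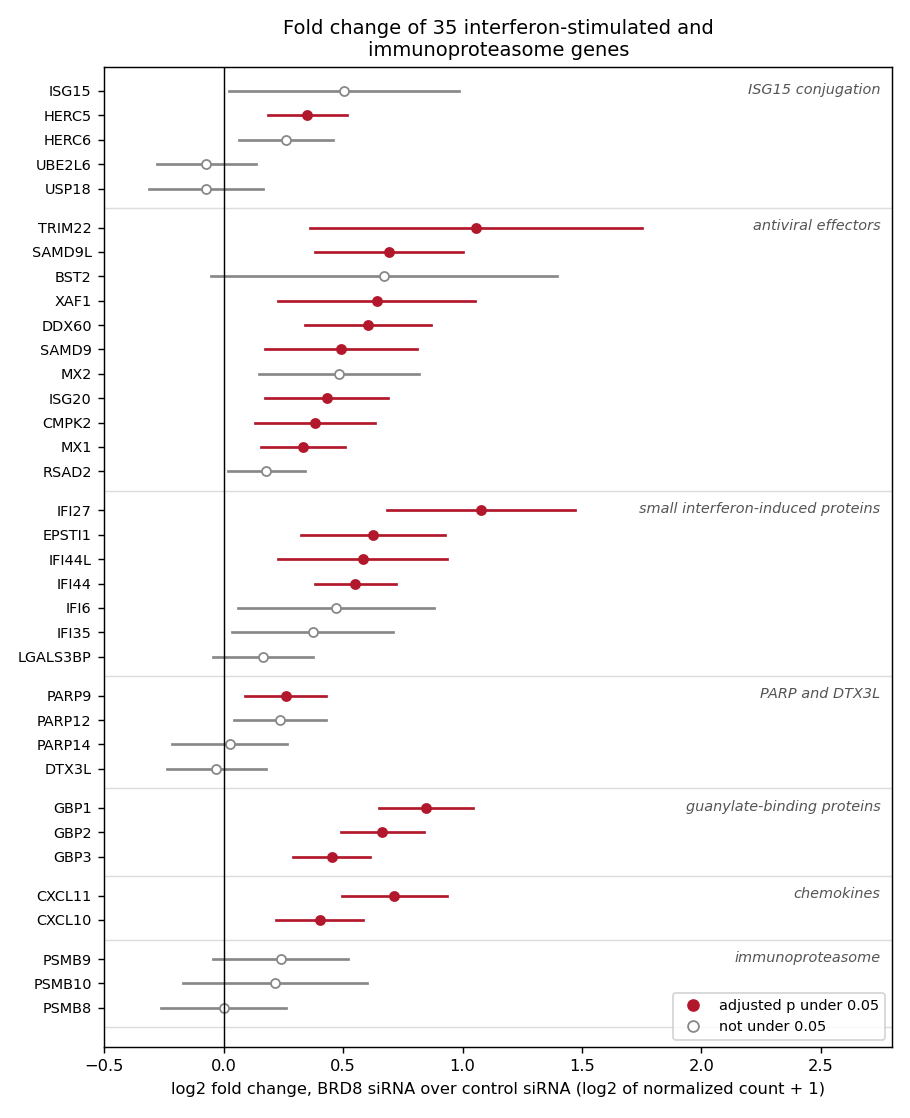
Log2 fold change of each of the 35 genes, BRD8 siRNA over control siRNA, on the log2(normalized count + 1) scale, with the 95% interval of the limma fit (bars) and grouped by role; filled red points have an adjusted p under 0.05. The guanylate-binding proteins and chemokines lie wholly right of 0, while USP18, UBE2L6, DTX3L, PARP14 and PSMB8 lie at or near 0.

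**Figure D3:**
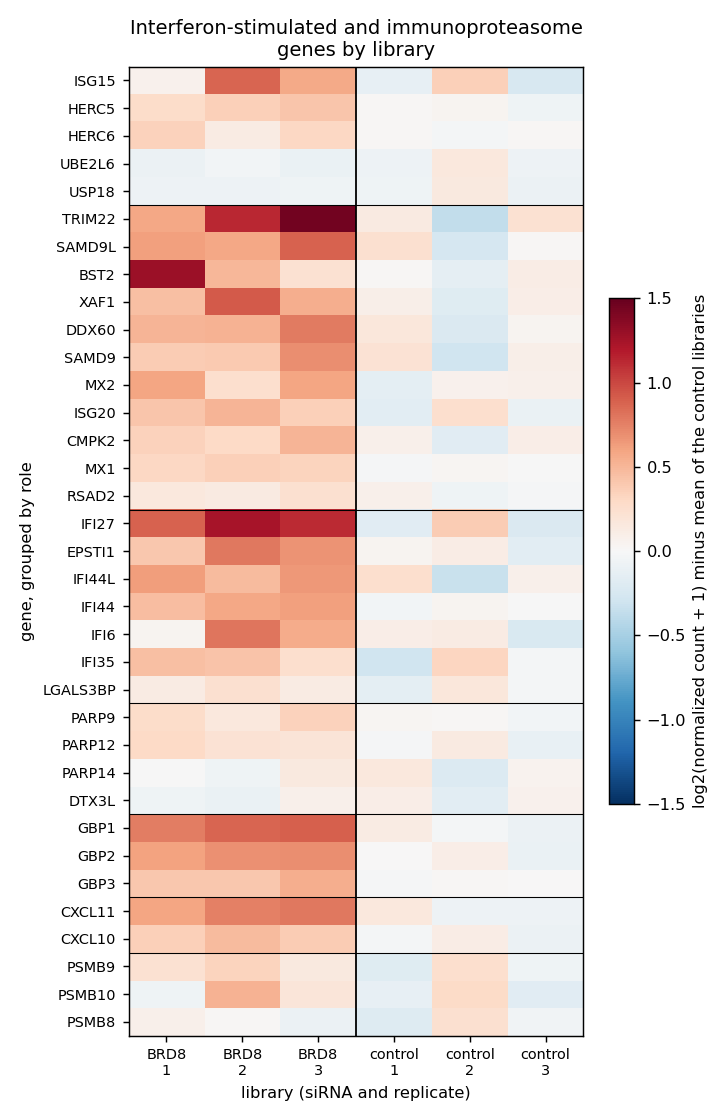
Each gene (rows, grouped by role) in each library (columns, BRD8 siRNA left and control siRNA right), as log2(normalized count + 1) minus the mean of the control libraries. GBP1, GBP2 and IFI27 are higher in all 3 BRD8 siRNA libraries, whereas ISG15, IFI6 and PSMB10 are high in BRD8 library 2 and near the controls in BRD8 library 1.

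The guanylate-binding proteins are interferon-induced GTPases that assemble on intracellular bacteria and parasite vacuoles, and all 3 in the set rose, where 10.1% of all genes tested rose. Outside the set, GBP4 did not pass the test, at a log2 fold change of 0.12 (limma adjusted p = 0.536), and GBP5 was under the filter. GBP1 had 1065, 1150.3 and 1163 normalized counts in the BRD8 siRNA libraries, against 679.6, 611 and 588 in the control libraries (log2 fold change 0.85, SE 0.0872, limma adjusted p = 5.96e-04). GBP2 stood at 3844, 4061 and 4088 normalized counts in the BRD8 siRNA libraries, against 2533, 2692 and 2351 in the control libraries (log2 fold change 0.66, SE 0.0759, limma adjusted p = 9.10e-04). GBP3 held 3602, 3623 and 3989 normalized counts in the BRD8 siRNA libraries, against 2689, 2765 and 2739 in the control libraries (log2 fold change 0.45, SE 0.0711, limma adjusted p = 0.00360). In each of these 3 all BRD8 siRNA libraries lay above all control libraries, as in 18.9% of all genes, and the spread within a group was small beside the gap. The 3 genes are paralogs in 1 cluster on chromosome 1, so the assignment of reads among them is uncertain, and the exons of GBP2 overlap those of GBP7 on the same strand. Per kilobase of transcript GBP2 was at 1801 normalized counts in BRD8 siRNA cells and 1137 in control cells, GBP3 at 1219 and 890.4, and GBP1 at 371 and 206, so GBP1 was the least abundant of the 3 with the largest fold change.

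CXCL10 and CXCL11, ligands of the receptor CXCR3 that draw activated T cells to epithelium, both rose, where 10.1% of all genes tested rose. The chemokine gene CXCL9, outside the set, did not pass the test, at a log2 fold change of -0.27 (limma adjusted p = 0.355). CXCL11 had 1025, 1147 and 1175 normalized counts in the BRD8 siRNA libraries, against 755, 643 and 642 in the control libraries (log2 fold change 0.71, SE 0.0973, limma adjusted p = 0.00186). CXCL10 ran at 1848, 2002 and 1875 normalized counts in the BRD8 siRNA libraries, against 1421, 1562 and 1358 in the control libraries (log2 fold change 0.40, SE 0.0809, limma adjusted p = 0.0103). For both, the 3 BRD8 siRNA libraries lay above the 3 control libraries, as in 18.9% of all genes. The call for CXCL10 ended without BRD8 library 2 or control library 3, at limma adjusted p from 0.0511 to 0.0609. Per kilobase of transcript CXCL10 was the more abundant of the pair, at 1623 in BRD8 siRNA cells and 1230.4 in control cells, against 695 and 424 normalized counts for CXCL11.

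**Figure D4:**
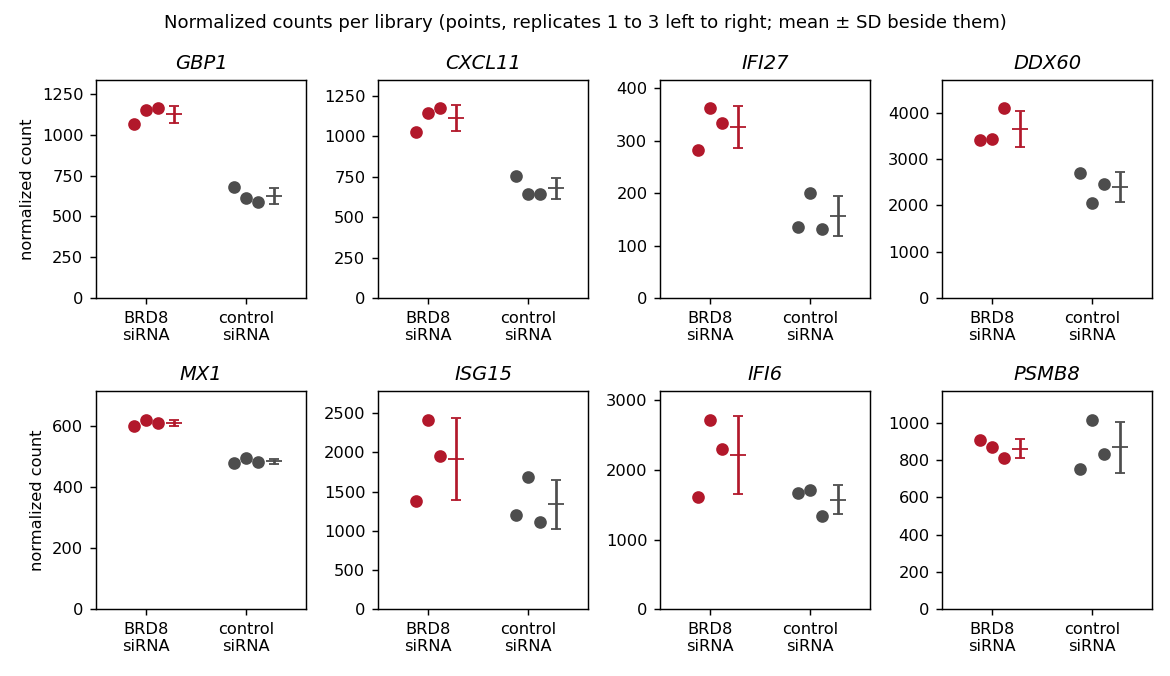
Normalized counts of 8 genes in each library (points) with mean ± SD beside them (n = 3 per group), BRD8 siRNA left and control siRNA right; every axis starts at 0. GBP1, CXCL11, IFI27, DDX60 and MX1 have groups that do not overlap, ISG15 and IFI6 overlap through BRD8 library 1, and the PSMB8 groups overlap.

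Among the 11 antiviral effectors 8 rose, where 10.1% of all genes tested rose. In all 11 every BRD8 siRNA library lay above every control library, as in 18.9% of all genes. DDX60, a helicase-like protein of antiviral defence, and the related pair SAMD9 and SAMD9L, large proteins that restrict poxviruses, have long transcripts and rose. DDX60 had 3413, 3423 and 4098 normalized counts in the BRD8 siRNA libraries, against 2693, 2056 and 2469 in the control libraries (log2 fold change 0.60, SE 0.116, limma adjusted p = 0.00835). SAMD9L counted 1210.1, 1181 and 1464 normalized counts in the BRD8 siRNA libraries, against 935, 663 and 801 in the control libraries (log2 fold change 0.69, SE 0.136, limma adjusted p = 0.00930). SAMD9 was at 6048, 6114 and 7572 normalized counts in the BRD8 siRNA libraries, against 5402, 3777 and 4933 in the control libraries (log2 fold change 0.49, SE 0.141, limma adjusted p = 0.0408). Control library 2 was the lowest library for each of the 3, and BRD8 library 3 the highest. DDX60 and SAMD9L kept their calls without any 1 library, while SAMD9 lost its call without BRD8 library 1, 2 or 3 or control library 3, at limma adjusted p from 0.0702 to 0.141. SAMD9 and SAMD9L lie beside each other on chromosome 7 and are close paralogs, so reads may be assigned to either with some uncertainty.

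MX1, a dynamin-like GTPase that blocks influenza and other viruses, rose by a small and even step. MX1 had 601, 622 and 610.0 normalized counts in the BRD8 siRNA libraries, against 479, 496 and 482 in the control libraries (log2 fold change 0.33, SE 0.0781, limma adjusted p = 0.0196). Its call ended without BRD8 library 2 or 3 or control library 1 or 3, at limma adjusted p from 0.0632 to 0.0894. Its paralog MX2, which restricts HIV, did not pass the test although its groups did not overlap. MX2 showed 137, 108 and 137 normalized counts in the BRD8 siRNA libraries, against 81.5, 95.0 and 95.5 in the control libraries (log2 fold change 0.48, SE 0.148, limma adjusted p = 0.0527; 95% interval 0.15 to 0.82). It was called without BRD8 library 2 or control library 2, at limma adjusted p from 0.0319 to 0.0489, in edgeR, and with the length and GC trend removed (limma adjusted p = 0.0289).

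RSAD2 (viperin), an enzyme that makes a chain-terminating nucleotide, and CMPK2, a mitochondrial nucleotide kinase, are neighbours on chromosome 2 whose exons overlap on opposite strands, so reads in the overlap cannot be told apart without strand. RSAD2 stood at 5368, 5301 and 5688 normalized counts in the BRD8 siRNA libraries, against 5077, 4608 and 4772 in the control libraries (log2 fold change 0.18, SE 0.0708, limma adjusted p = 0.115; 95% interval 0.02 to 0.34). CMPK2 had 422, 409 and 475 normalized counts in the BRD8 siRNA libraries, against 351, 295 and 357 in the control libraries (log2 fold change 0.38, SE 0.111, limma adjusted p = 0.0425). Both pairs of groups lay apart, but only CMPK2 passed the test, and its call ended without BRD8 library 1, 2 or 3 or control library 1 or 3, at limma adjusted p from 0.0708 to 0.155. The ratio of CMPK2 to RSAD2 per kilobase was 0.0960, 0.0941 and 0.102 in the BRD8 siRNA libraries, against 0.0843, 0.0780 and 0.0912 in the control libraries (exact permutation test, two-sided p = 0.1, the smallest that 3 against 3 libraries allow). RSAD2 was among the abundant genes of the set, at 1549 normalized counts per kilobase of transcript in BRD8 siRNA cells and 1369 in control cells, and with the length and GC trend removed its adjusted p was 0.00649.

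ISG20, an exonuclease that degrades viral RNA, rose in the comparison of all libraries. ISG20 had 2033, 2169.7 and 1946 normalized counts in the BRD8 siRNA libraries, against 1362, 1815 and 1416 in the control libraries (log2 fold change 0.43, SE 0.114, limma adjusted p = 0.0300). Control library 2 was the highest control, close to the lowest BRD8 siRNA library, and the adjusted p was 3.03e-04 without it, whereas the call ended without BRD8 library 1, 2 or 3 or control library 1 or 3, at limma adjusted p from 0.0695 to 0.125. The remaining effectors were low in these cells. XAF1 had 67.6, 93.9 and 72.5 normalized counts in the BRD8 siRNA libraries, against 52.1, 43.2 and 52.8 in the control libraries (log2 fold change 0.64, SE 0.182, limma adjusted p = 0.0401). XAF1 counters the apoptosis inhibitor XIAP. TRIM22 reached 19.8, 29.4 and 36.7 normalized counts in the BRD8 siRNA libraries, against 14.2, 9.72 and 15.2 in the control libraries (log2 fold change 1.06, SE 0.306, limma adjusted p = 0.0432). TRIM22 is a ubiquitin ligase that restricts several viruses. Both calls rest on few reads, and they were lost without BRD8 library 1, 2 or 3 or control library 1 or 3 for XAF1 and without BRD8 library 2 or 3 or control library 1, 2 or 3 for TRIM22, at limma adjusted p from 0.0524 to 0.151 for XAF1 and adjusted p from 0.0561 to 0.156 for TRIM22. BST2 had 33.3, 19.0 and 15.5 normalized counts in the BRD8 siRNA libraries, against 13.3, 11.9 and 14.2 in the control libraries (log2 fold change 0.67, SE 0.319, limma adjusted p = 0.182; 95% interval -0.05 to 1.39), and it did not pass the test. BST2 encodes tetherin, which holds budding virions at the cell surface, and its value in BRD8 library 1 was far above the other 2 BRD8 siRNA libraries.

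Of the 7 small interferon-induced proteins 4 rose, IFI27, IFI44, IFI44L and EPSTI1, where 10.1% of all genes tested rose. IFI27, a small membrane protein of mitochondria, had the largest log2 fold change of the 35 genes on the log2(normalized count + 1) scale, and TRIM22 exceeded it in edgeR, at 1.14 against 1.08 for IFI27, and in DESeq2. IFI27 had 283, 362 and 334 normalized counts in the BRD8 siRNA libraries, against 136, 199.7 and 132 in the control libraries (log2 fold change 1.08, SE 0.174, limma adjusted p = 0.00400). IFI6, of the same protein family, overlapped between the groups and did not pass the test. IFI6 stood at 1611, 2724 and 2307 normalized counts in the BRD8 siRNA libraries, against 1675, 1708 and 1336 in the control libraries (log2 fold change 0.47, SE 0.181, limma adjusted p = 0.107; 95% interval 0.06 to 0.88). BRD8 library 1 lay inside the range of the controls while BRD8 library 2 and 3 lay above it, and the gene was called without BRD8 library 1 or control library 2, at limma adjusted p from 0.0204 to 0.0370. In the authors' deposited table IFI6 has an adjusted p of 0.0303, under the threshold.

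IFI44 and IFI44L are neighbouring paralogs on chromosome 1 that are induced together by interferon. IFI44 had 1988, 2157 and 2207 normalized counts in the BRD8 siRNA libraries, against 1406, 1491 and 1436 in the control libraries (log2 fold change 0.55, SE 0.0745, limma adjusted p = 0.00183). IFI44L showed 251, 226 and 254 normalized counts in the BRD8 siRNA libraries, against 193, 128 and 172 in the control libraries (log2 fold change 0.58, SE 0.156, limma adjusted p = 0.0327). Both groups lay apart in each gene, and the shorter IFI44 was even within groups while the longer IFI44L was lowest in control library 2. The call for IFI44L ended without BRD8 library 1, 2 or 3 or control library 3, at limma adjusted p from 0.0644 to 0.110. EPSTI1, an interferon-responsive gene first described in epithelial and stromal co-culture, rose as well. EPSTI1 had 229.8, 299.7 and 276 normalized counts in the BRD8 siRNA libraries, against 178, 187 and 155 in the control libraries (log2 fold change 0.62, SE 0.133, limma adjusted p = 0.0128). Its call ended without BRD8 library 2 or 3 or control library 3, at limma adjusted p from 0.0556 to 0.0616.

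IFI35, a partner of NMI in cytokine signalling, and LGALS3BP, a secreted glycoprotein that binds galectins, did not pass the test. IFI35 had 871, 859 and 759 normalized counts in the BRD8 siRNA libraries, against 519, 802 and 627 in the control libraries (log2 fold change 0.37, SE 0.149, limma adjusted p = 0.116; 95% interval 0.04 to 0.71). LGALS3BP ran at 9826, 10612 and 9822 normalized counts in the BRD8 siRNA libraries, against 8122, 10155 and 8833 in the control libraries (log2 fold change 0.16, SE 0.0916, limma adjusted p = 0.253; 95% interval -0.04 to 0.37). In both genes control library 2 was the highest control and lay among the BRD8 siRNA libraries, and without it both were called, at limma adjusted p = 0.00266 and 0.0171. With the length and GC trend removed neither was called, at limma adjusted p = 0.0571 and 0.455. LGALS3BP was the most abundant gene of the set per kilobase of transcript, at 4194 normalized counts in BRD8 siRNA cells and 3757 in control cells, and TRIM22 the least, at 9.58 and 4.37.

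Of the 5 genes of the ISG15 conjugation system HERC5 rose and the other 4 did not pass the test, where 10.1% of all genes tested rose. ISG15 is a ubiquitin-like protein that UBE2L6 carries and HERC5, its main ligase in human cells, attaches to newly made proteins, and USP18 removes it and also dampens signalling at the interferon receptor. ISG15 had 1375, 2415 and 1946 normalized counts in the BRD8 siRNA libraries, against 1204, 1689 and 1114 in the control libraries (log2 fold change 0.50, SE 0.213, limma adjusted p = 0.135; 95% interval 0.02 to 0.99). The groups overlapped, since control library 2 lay above BRD8 library 1, and the gene was called without BRD8 library 1 or control library 2, at limma adjusted p from 0.0110 to 0.0455. With the length and GC trend removed the adjusted p of ISG15 was 0.0341, at a log2 fold change of 0.36.

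HERC5 stood at 2411, 2559 and 2670.0 normalized counts in the BRD8 siRNA libraries, against 2027, 2049 and 1917 in the control libraries (log2 fold change 0.35, SE 0.0733, limma adjusted p = 0.0121). Its groups did not overlap, and the call ended without BRD8 library 2 or 3 or control library 3, at limma adjusted p from 0.0533 to 0.0725. HERC6, a relative of HERC5 that is the ISG15 ligase of the mouse, was higher in each BRD8 siRNA library but did not pass the test. HERC6 had 909, 779 and 887 normalized counts in the BRD8 siRNA libraries, against 723, 697 and 724 in the control libraries (log2 fold change 0.26, SE 0.0869, limma adjusted p = 0.0679; 95% interval 0.06 to 0.46). With the length and GC trend removed its adjusted p was 0.0130. USP18 and UBE2L6 did not pass the test, with fold changes near 0. USP18 held 226, 226 and 227 normalized counts in the BRD8 siRNA libraries, against 227, 265 and 225 in the control libraries (log2 fold change -0.07, SE 0.106, limma adjusted p = 0.666; 95% interval -0.31 to 0.17). UBE2L6 showed 667, 689 and 663 normalized counts in the BRD8 siRNA libraries, against 670.1, 791 and 669.7 in the control libraries (log2 fold change -0.07, SE 0.0921, limma adjusted p = 0.625; 95% interval -0.28 to 0.14). For both, control library 2 was the highest of the 6 libraries, and without it the log2 fold changes were 0.00 for USP18 and 0.01 for UBE2L6. With the length and GC trend removed UBE2L6 fell, by 0.19 on the log2 scale at limma adjusted p = 0.0328. USP18 has a near-identical copy in the genome, so its reads are uncertain.

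PARP9 and DTX3L form a ubiquitin ligase complex that modifies histones, and their promoter windows share the ISRE core shown above. PARP9 rose and DTX3L did not pass the test. PARP9 had 2394, 2223 and 2517 normalized counts in the BRD8 siRNA libraries, against 2030.1, 2003 and 1922 in the control libraries (log2 fold change 0.26, SE 0.0752, limma adjusted p = 0.0431). DTX3L counted 3728, 3626 and 4106 normalized counts in the BRD8 siRNA libraries, against 4181, 3485 and 4063 in the control libraries (log2 fold change -0.03, SE 0.0908, limma adjusted p = 0.843; 95% interval -0.24 to 0.17). The groups lay apart for PARP9 and overlapped for DTX3L, and the call for PARP9 ended without BRD8 library 1, 2 or 3 or control library 1 or 3, at limma adjusted p from 0.0641 to 0.176. The ratio of PARP9 to DTX3L per kilobase of transcript was 0.557, 0.531 and 0.532 in the BRD8 siRNA libraries, against 0.421, 0.498 and 0.410 in the control libraries, with no overlap (exact permutation test, two-sided p = 0.1, the smallest possible here, and 0.150 after Benjamini-Hochberg adjustment over 6 ratios). Exons of both genes overlap on opposite strands, where reads cannot be told apart. PARP12 and PARP14, ADP-ribosyltransferases of which PARP14 carries macrodomains, did not pass the test. PARP12 had 1421, 1336 and 1318 normalized counts in the BRD8 siRNA libraries, against 1137, 1261 and 1069 in the control libraries (log2 fold change 0.24, SE 0.0856, limma adjusted p = 0.0898; 95% interval 0.04 to 0.43). Its groups did not overlap, and it was called without control library 2, at limma adjusted p = 0.0118, and with the length and GC trend removed, at 0.0393. PARP14 ran at 3142, 3014 and 3484 normalized counts in the BRD8 siRNA libraries, against 3516, 2726 and 3275 in the control libraries (log2 fold change 0.02, SE 0.106, limma adjusted p = 0.899; 95% interval -0.22 to 0.26), with groups that overlapped.

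None of the 3 immunoproteasome subunits passed the test, and their groups overlapped. PSMB8 replaces PSMB5 as the chymotrypsin-like subunit, PSMB9 replaces PSMB6, and PSMB10 replaces PSMB7. PSMB8 had 906, 868 and 809 normalized counts in the BRD8 siRNA libraries, against 753, 1016 and 831 in the control libraries (log2 fold change -0.00, SE 0.116, limma adjusted p = 0.999; 95% interval -0.26 to 0.26). PSMB9 stood at 430.4, 466 and 408 normalized counts in the BRD8 siRNA libraries, against 323, 437 and 353 in the control libraries (log2 fold change 0.24, SE 0.125, limma adjusted p = 0.225; 95% interval -0.05 to 0.52). PSMB10 showed 425, 635 and 505 normalized counts in the BRD8 siRNA libraries, against 407, 543 and 395 in the control libraries (log2 fold change 0.21, SE 0.169, limma adjusted p = 0.424; 95% interval -0.17 to 0.60). Control library 2 was the highest control for all 3, and without it PSMB9 was called (limma adjusted p = 0.0188) while PSMB8 and PSMB10 were not (0.327 and 0.0741). With the length and GC trend removed none of the 3 was called, the lowest adjusted p being 0.184, for PSMB9.

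The constitutive subunits had log2 fold changes under 0 and did not pass the test. PSMB5 had 2316, 1963 and 1855 normalized counts in the BRD8 siRNA libraries, against 2344, 3208 and 2656 in the control libraries (log2 fold change -0.41, SE 0.127, limma adjusted p = 0.0522), and its groups did not overlap. It passed without BRD8 library 1 or control library 1 or 2, at limma adjusted p from 0.0310 to 0.0486. PSMB6 ran at 2169, 1866 and 1595 normalized counts in the BRD8 siRNA libraries, against 1619, 2360.1 and 1915 in the control libraries (log2 fold change -0.06, SE 0.151, limma adjusted p = 0.817). PSMB7 held 2172, 2079 and 1864 normalized counts in the BRD8 siRNA libraries, against 2037, 2517 and 2359 in the control libraries (log2 fold change -0.17, SE 0.0991, limma adjusted p = 0.260). Taken within each library, where depth cancels, the ratio of PSMB8 to PSMB5 per kilobase of transcript was 0.374, 0.423 and 0.418 in the BRD8 siRNA libraries, against 0.308, 0.303 and 0.300 in the control libraries. The control ratios were nearly identical, control library 2 included, and every BRD8 siRNA ratio lay above them (exact permutation test, two-sided p = 0.1, the smallest possible, and 0.150 adjusted over 6 ratios). For PSMB9 to PSMB6 the ratios were 0.218, 0.274 and 0.281 in the BRD8 siRNA libraries, against 0.220, 0.204 and 0.203 in the control libraries (exact permutation p = 0.200). For PSMB10 to PSMB7 they were 0.158, 0.246 and 0.218 in the BRD8 siRNA libraries, against 0.161, 0.174 and 0.135 in the control libraries (exact permutation p = 0.300). Both overlapped through BRD8 library 1. PSMB8 and PSMB9 lie on opposite strands of chromosome 6 and have exons annotated as overlapping. The ratio of PSMB9 to PSMB8 was 0.811, 0.915 and 0.860 in the BRD8 siRNA libraries, against 0.732, 0.734 and 0.724 in the control libraries (exact permutation p = 0.1, the smallest possible). None of 11 other core subunits passed the test, with log2 fold changes from -0.17 to 0.19, and none of 5 activator and assembly genes. Without control library 2 the core subunit gene PSMB3 and the activator gene PSME1 were called higher, and no other gene of these 2 lists was, at limma adjusted p = 0.0199 and 0.0244.

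**Figure D5:**
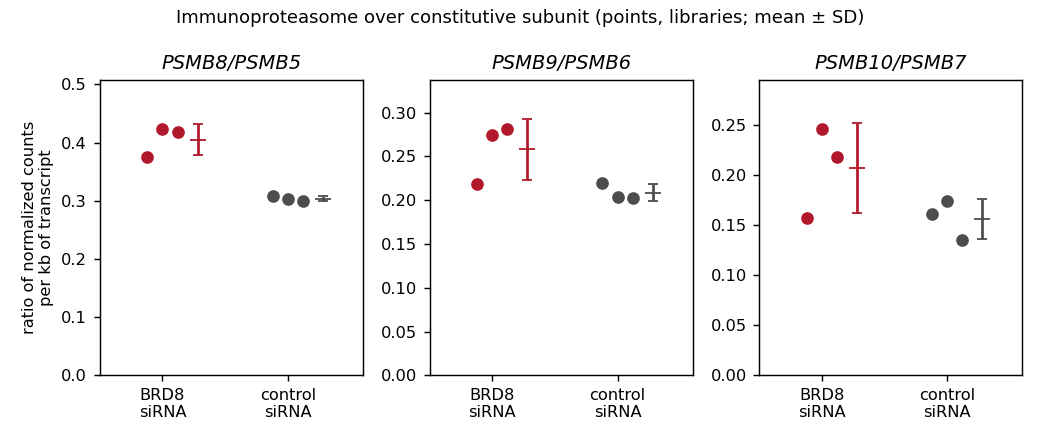
Ratio of each immunoproteasome subunit to the constitutive subunit it replaces, as normalized counts per kilobase of transcript, in each library (points) with mean ± SD (n = 3 per group), BRD8 siRNA left and control siRNA right; every axis starts at 0. The PSMB8/PSMB5 ratios do not overlap between the groups, and the other pairs overlap through BRD8 library 1.

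Other genes of the interferon pathway and further targets of it were read from 8 lists of 99 genes, of which 92 passed the filter. Of these 35 rose and 2 fell, where 10.1% of all genes tested rose and 8.93% fell. The median log2 fold change of the 92 was 0.25. With BRD8 library 1, 2 or 3 left out 30, 23 and 19 of them rose, where 7.43%, 5.83% and 5.68% of all genes rose. With control library 1, 2 or 3 left out 24, 45 and 20 rose, where 6.94%, 15.9% and 5.42% of all genes rose. Transcripts of interferon ligands were present in both groups. Of 8 ligand genes 6 passed the filter and 3 rose, the type III interferons IFNL1 and IFNL2 and the type I interferon IFNE, while IFNG was at 0 in all libraries. IFNL1 had 188, 239 and 198 normalized counts in the BRD8 siRNA libraries, against 146, 159 and 129 in the control libraries (log2 fold change 0.52, SE 0.136, limma adjusted p = 0.0287). The IFNL1 call ended without BRD8 library 2 or 3 or control library 1 or 3, at limma adjusted p from 0.0686 to 0.121. IFNL2 stood at 203, 259 and 226 normalized counts in the BRD8 siRNA libraries, against 136, 184 and 130.1 in the control libraries (log2 fold change 0.62, SE 0.159, limma adjusted p = 0.0275). The IFNL2 call ended without BRD8 library 2 or 3 or control library 1 or 3, at limma adjusted p from 0.0826 to 0.113. IFNL2 is nearly identical to IFNL3, so reads of the pair are uncertain. IFNE held 458, 400.2 and 407 normalized counts in the BRD8 siRNA libraries, against 282, 279.6 and 345 in the control libraries (log2 fold change 0.48, SE 0.114, limma adjusted p = 0.0198). The IFNE call ended without BRD8 library 1 or 3 or control library 1, at limma adjusted p from 0.0594 to 0.0690. All 3 had groups that did not overlap. IFNB1 had 244, 253 and 220.4 normalized counts in the BRD8 siRNA libraries, against 142, 218 and 182 in the control libraries (log2 fold change 0.42, SE 0.159, limma adjusted p = 0.0988). This gene encodes interferon beta, and its groups lay apart without passing the test.

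Of 6 receptor genes 3 rose and none fell, where 10.1% of all genes tested rose and 8.93% fell. IL10RB, the shared chain of the type III receptor, had a log2 fold change of 0.52 (SE 0.0769, limma adjusted p = 0.00261), and IFNGR1, the binding chain for interferon gamma, one of 0.47 (SE 0.0742, 0.00371). IFNAR2, of the type I receptor, stood at 0.25 (limma adjusted p = 0.0472) and lost its call without BRD8 library 1, 2 or 3 or control library 1 or 3, at adjusted p from 0.0660 to 0.164. Exons of IFNAR2 and of IL10RB overlap other genes. Of 11 JAK, STAT and IRF genes only STAT3 rose, by 0.35 on the log2 scale (limma adjusted p = 0.0148, and 0.0721 without BRD8 library 3). A count of 1 in 11 is near the 10.1% of all genes tested that rose. STAT2 and IRF9 did not pass the test, at log2 fold changes of 0.12 and 0.07 and limma adjusted p = 0.273 and 0.698. Of 7 feedback inhibitors of cytokine signalling 6 passed the filter and 2 rose, where 10.1% of all genes tested rose, while the other 4 did not pass the test. CISH and SOCS3 rose by 1.09 and 0.47 on the log2 scale (limma adjusted p = 0.00204 and 0.00948), and SOCS3 lost its call without control library 3, at 0.0531.

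Among other targets 7 of 8 OAS and IFIT genes rose, led by OAS1, IFIT2, IFIT1 and IFIT3, at log2 fold changes of 0.96, 0.79, 0.63 and 0.62. Beside this count and those that follow, 10.1% of all genes tested rose and 8.93% fell. The RNA sensor genes DDX58 (RIG-I) and IFIH1 (MDA5) rose among 9 sensors tested, by 0.51 and 0.30 on the log2 scale, and IFIH1 lost its call without BRD8 library 2 or 3 or control library 1 or 3, at limma adjusted p from 0.0703 to 0.171. Of 36 further interferon-stimulated genes 16 rose and 2, NT5C3A and PNPT1, fell, by 0.24 and 0.30 on the log2 scale (limma adjusted p = 0.0337 and 0.0287). No gene of the pathway lists was called lower when any library other than control library 2 was left out, and without control library 2 the falls numbered 5. By the smallest adjusted p the leading rises were BATF2, an AP-1 family factor, by 1.66, the chemokine CCL5 by 0.77, the inflammatory caspase gene CASP1 by 1.05 and the tryptophan-degrading enzyme IDO1 by 0.81. The MHC class I list shares the antigen presentation role of the immunoproteasome. Of its 10 genes 1 rose, near the 10.1% of all genes tested that rose. This gene was TAPBP, the peptide-loading chaperone tapasin, which rose by 0.25 on the log2 scale (limma adjusted p = 0.0355). The TAPBP call ended without BRD8 library 1, 2 or 3 or control library 1 or 3, at limma adjusted p from 0.0629 to 0.173.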

How the data were processed

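The 35 genes, the gene lists and the tests were chosen with earlier results of these data known. Groups and replicate numbers come from the sample titles; all titles name Calu3, while the shared extraction protocol in the labels speaks of other bronchial cells. Per the labels, libraries were made with the TruSeq RNA kit, version 2, which does not mark strand. STAR 2.6, featureCounts 1.6.3 (Subread), DESeq2 1.22.1 and build hg19 are named in the submitters' processing notes; the annotation, strand setting and filters behind the counts are not stated there. The authors deposited a normalized signal per gene and library, counts divided by a size factor, beside their own comparison that holds, per gene, a log2 fold change with standard error, the score of the test, its p-value, and that p-value after adjustment. The sign of the deposited score is opposite to that of the deposited fold change, which is BRD8 siRNA over control. From the value that 1 read is worth in a library, whole reads were recovered: 100.0% of values were whole numbers of reads to within 0.01; a floor of 3 reads corresponds to 2.84 to 3.24 normalized counts and covers counting error only.

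Because the values are normalized, limma 3.58.1 in R 4.3.3 was run with a variance trend on log2(normalized count + 1) on the 15354 genes whose mean reached 10, with treatment as the only term, two-sided, with Benjamini-Hochberg adjustment over all genes and a threshold of 0.05. The design named this test for normalized values; fold changes on this scale understate the change of low genes. Alternatives were edgeR 4.0.16 (quasi-likelihood, TMM) on the recovered reads, which called 1640 genes higher and 1329 lower, DESeq2 1.42.0, other pseudocounts and filters, quantile normalization, a replicate block, a spline trend in length and GC content removed library by library, and each library left out. The limma model was tested on simulated counts. Transcript length, GC content and exon overlaps come from GENCODE 29, matched by symbol or alias for all 35 genes; its build differs from that of the data. Promoter windows come from RefSeq on GRCh38.p14. By the naming rule every gene of the set is described, and of each further list up to 4 genes with the smallest adjusted p, or up to 2 where none passed. KIF20A, STAT2, IRF9, NT5C3A, PNPT1, CXCL9, GBP4 and GBP5 were added after their values were seen, and genes of lists in which none passed are given by their range.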

Additional observations from a re-analysis of the deposited data

How the results depend on the processing

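With the trend in length and GC content removed, 1 gene of the set fell, 5 other pathway genes fell, the whole table held 2392 rises and 2866 falls, the median of the set was 0.35 and the log2 fold change of DTX3L was 0.0309. PSMB8, at -4.98e-04 with all libraries, was at 0.0230 with quantile normalization and at 0.00141 in edgeR. Each of the 8 genes that kept its call without any 1 library was called in all 16 alternatives, and USP18, PARP14, DTX3L, PSMB8 and PSMB10 in none; BST2 was called in none of those that tested it, being under the filter of a mean of at least 50. Leaving out 1 library at a time gave 8 to 25 rises and 0 falls in the set, a median of 0.366 to 0.457, 19 to 45 rises and 0 to 5 falls among other pathway genes, and 833 to 2445 rises and 528 to 2781 falls over the table; without control library 2 the table's rises and falls were the highest of these. The log2 fold change ran from -0.113 to 0.00715 for UBE2L6, -0.117 to 8.01e-04 for USP18, -0.0816 to 0.102 for PARP14, -0.112 to 0.0196 for DTX3L, -0.0959 to 0.119 for PSMB8 and -0.191 to 0.0808 for PSMB6. The cause was not tested. With a replicate block 20 genes of the set rose and 0 fell, XAF1 being lost and ISG15 and HERC6 gained, where 1939 genes of the whole table rose and 1962 fell, against 1549 and 1371 without the block; the labels tie nothing to a shared number, same-numbered libraries deviated together at r = -0.08, 0.34 and 0.15 for numbers 1, 2 and 3, not every library correlated best with its own number, and the numbers were not taken as pairs. Depth limits TRIM22, BST2 and XAF1, the genes of the set with the lowest counts.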
